A study of Mus musculus with 6 samples.

Results

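The circadian clock genes described here are 10 transcripts of the feedback loop that keeps daily time in mouse cells: Arntl, Clock and Npas2 of the activator arm, Per1, Per2, Per3, Nr1d1 and Nr1d2 of the repressor arm, and the output factors Dbp and Tef. They were taken by gene symbol from a table of 54532 genes, and each symbol matched 1 row. The table holds RNA-seq of 6 heart samples of offspring, all wild type and of the outbred ICR stock, with 4d in the sample titles, read here as day 4. In the STZ group (n = 3) streptozotocin, a toxin of pancreatic beta cells, was given to the mothers by the intraperitoneal route while pregnant, as a model of diabetes in pregnancy. In the control group (n = 3) the mothers received citric acid in the same way. The labels used here name no litter, so p-values measure only the spread between these 6 samples, which may include littermates. They give no hour of collection either, so a difference in time of day and one in clock state cannot be told apart.

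In the clock, ARNTL (also called BMAL1) pairs with CLOCK or with NPAS2 and activates genes that carry E-box motifs, among them the Per genes, Nr1d1, Nr1d2, Dbp and Tef. PER proteins, with the CRY proteins, inhibit that pair, and NR1D1 and NR1D2 (REV-ERB alpha and beta) repress Arntl, Clock and Npas2 through RORE motifs. DBP and TEF activate genes with D-box motifs, where NFIL3 represses. In mature tissues with a running clock, transcripts of Arntl and Npas2 peak when those of Dbp and the Nr1d genes are low, and heart muscle cells use this clock to time metabolic and ion channel genes.

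No clock gene passed the test between STZ and control hearts. Dbp and Tef had the largest differences, both with a lower mean in STZ hearts, but 1 control heart lay among the STZ hearts for each. Hearts of the same group differed as well. Dbp, Tef and Per3 were highest in the same 2 control hearts and lower in the remaining control heart, while Npas2 was lowest in the first pair and highest in the last. Summed erythroid markers were also highest in that pair of control hearts, and a link was not tested.

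Values are FPKM, levels per kilobase of gene length and per unit of a library scale set by the authors. Whole reads could be recovered from them, 16707268 to 18082599 per library, and the 10 genes had between 114 and 2704 reads in a library. Control 2 stood apart from the other libraries. Its summed level of 10 cardiomyocyte markers was 7455 FPKM, while the STZ hearts had 15589 to 16642 FPKM and the other control hearts 14937 and 17960 FPKM. Its summed level of 8 atrial markers was 6326 FPKM, against 46.5 to 129 FPKM in STZ hearts and 51.0 and 56.0 FPKM in the other control hearts. The atrial marker Sln was at 277.9 FPKM in control 2, and at 0 in every STZ heart and in control 1. Control 2 also had the highest sums of fibroblast markers (1859 FPKM) and erythroid markers (14548 FPKM), and the authors' scale was 1.21 times its recovered reads, while it was 0.985 to 1.03 times in the others. Erythroid sums were 2229, 2387 and 4022 FPKM in STZ hearts 1 to 3, and 4927 and 2596 FPKM in controls 1 and 3. Control 2, control 1 and STZ 3 were thus highest, in the same order as for Tef and Per3, and a link was not tested. Control 3 was the 1 library with the female transcript Xist above 0.0541 FPKM (70.6 FPKM) and with the Y-linked Ddx3y at 0. All 10 cardiomyocyte markers were detected in every library, as the heart label calls for. In bulk heart RNA, fewer cells of a type and less RNA per cell cannot be told apart.

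Promoter windows of the members were read for the motifs through which the loop is known to act. RefSeq windows on GRCm38.p6, from 250 bases before to 50 bases after an annotated start, matched 9 of the 10 genes with 14 windows, and Per2 had none. They were searched on both strands for the E-box CACGTG, the D-box TTANGTAA and the RORE (AAN directly followed by TAGGTCA), and no motif overlapped another. An E-box was in 3 of the 14 windows, from 2 members, Per1 and Tef, while 7.15% of all 32851 windows held one. A D-box was in the Per3 window and no other member's, with 2.32% of all windows holding one. The RORE was in 1 window of Arntl and no other member's, with 0.219% of all windows holding one. The window of Dbp held none of the 3 motifs in these letters. The windows below are written 5′ to 3′ in the gene's direction with motif letters in capitals, and they are shown because these genes either lead the pattern across hearts or carry a motif of the loop.
Per3, chr4:151044616-151044915, minus strand, D-boxes in capitals: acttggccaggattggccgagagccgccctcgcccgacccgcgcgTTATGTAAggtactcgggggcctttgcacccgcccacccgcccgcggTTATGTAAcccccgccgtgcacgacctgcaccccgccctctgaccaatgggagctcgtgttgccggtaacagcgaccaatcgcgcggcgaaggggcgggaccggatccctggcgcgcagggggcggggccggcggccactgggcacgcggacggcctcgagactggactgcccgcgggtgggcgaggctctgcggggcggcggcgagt
Tef, chr15:81802423-81802722, plus strand, E-box in capitals: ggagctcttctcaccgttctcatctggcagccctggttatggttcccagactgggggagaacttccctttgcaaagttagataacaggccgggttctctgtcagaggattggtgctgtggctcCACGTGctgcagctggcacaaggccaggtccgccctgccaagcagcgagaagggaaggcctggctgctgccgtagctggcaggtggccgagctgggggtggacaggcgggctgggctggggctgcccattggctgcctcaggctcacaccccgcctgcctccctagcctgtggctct
Dbp, chr7:45704997-45705296, plus strand, no motif: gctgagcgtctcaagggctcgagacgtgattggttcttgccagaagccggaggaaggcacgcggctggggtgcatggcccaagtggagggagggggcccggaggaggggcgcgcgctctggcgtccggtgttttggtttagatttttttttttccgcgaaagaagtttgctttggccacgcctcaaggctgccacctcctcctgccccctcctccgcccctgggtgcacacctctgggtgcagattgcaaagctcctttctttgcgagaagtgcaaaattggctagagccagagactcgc
Per1, chr11:69098699-69098998, plus strand, at a start inside the gene, E-box in capitals: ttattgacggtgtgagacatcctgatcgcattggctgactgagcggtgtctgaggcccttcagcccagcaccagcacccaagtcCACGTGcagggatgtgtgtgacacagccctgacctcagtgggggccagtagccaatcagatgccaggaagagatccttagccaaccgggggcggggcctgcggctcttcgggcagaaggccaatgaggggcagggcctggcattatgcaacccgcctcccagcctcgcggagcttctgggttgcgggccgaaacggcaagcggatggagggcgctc
Arntl, chr7:113207261-113207560, plus strand, RORE in capitals: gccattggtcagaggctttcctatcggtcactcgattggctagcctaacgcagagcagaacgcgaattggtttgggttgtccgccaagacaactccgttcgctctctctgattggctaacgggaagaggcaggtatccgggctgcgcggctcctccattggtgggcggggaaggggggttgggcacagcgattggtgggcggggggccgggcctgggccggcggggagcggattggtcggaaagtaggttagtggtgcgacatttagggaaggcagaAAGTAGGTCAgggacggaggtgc
Counted from 1 at the 5′ end of each window, the Per3 D-boxes began at bases 46 and 93, the Tef E-box at base 124, the Per1 E-box at base 85 and the Arntl RORE at base 278. A second window of Tef also held an E-box, beginning at base 113. These matches are letters in a window, and binding was not measured here.

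Arntl, the partner that the activator complex cannot do without, had the lowest mean level of the 10 genes. It lies at chr7:113207465-113314126 on the plus strand, with this and the other gene positions on GRCm38. Arntl stood at 1.37, 2.09 and 1.54 FPKM in STZ hearts 1 to 3, against 0.900, 1.63 and 1.43 FPKM in control hearts 1 to 3. The highest Arntl value was in STZ 2 and the lowest in control 1, and the groups overlapped. Its log2 fold change, STZ over control on the log2(FPKM + 1) scale, was 0.20 with SE 0.175, and the Benjamini-Hochberg (BH) adjusted p by limma was 0.922, with a 95% interval from -0.21 to 0.62. The log2 fold change was 0.065 without control 1, 0.092 without STZ 2 and 0.40 with array weights. The lowest library held 114 Arntl reads, for which counting error alone is 9.37%.

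Clock (chr5:76209868-76304792, minus strand), which encodes the partner of ARNTL in the complex, was at 6.26, 7.61 and 6.88 FPKM in STZ hearts and at 6.45, 3.66 and 7.83 FPKM in control hearts. Its paralogue Npas2 (chr1:39193731-39363236, plus strand), which can take the place of Clock, was at 3.65, 4.09 and 3.75 FPKM in STZ hearts and at 2.94, 2.10 and 4.96 FPKM in control hearts. Both were lowest in control 2 and highest in control 3, so the STZ values lay inside the control range. Npas2 averaged 3.83 ± 0.230 FPKM in STZ hearts and 3.33 ± 1.47 FPKM in control hearts (SD, n = 3 each). The log2 fold changes were 0.23 (SE 0.234) for Clock and 0.21 (SE 0.230) for Npas2, with BH-adjusted p = 0.922 by limma for both. Without control 2, the heart with the low cardiomyocyte and high atrial marker sums, these 2 values turned to -0.038 and -0.0058. They were 0.42 and 0.47 without control 3.

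**Figure D1:**
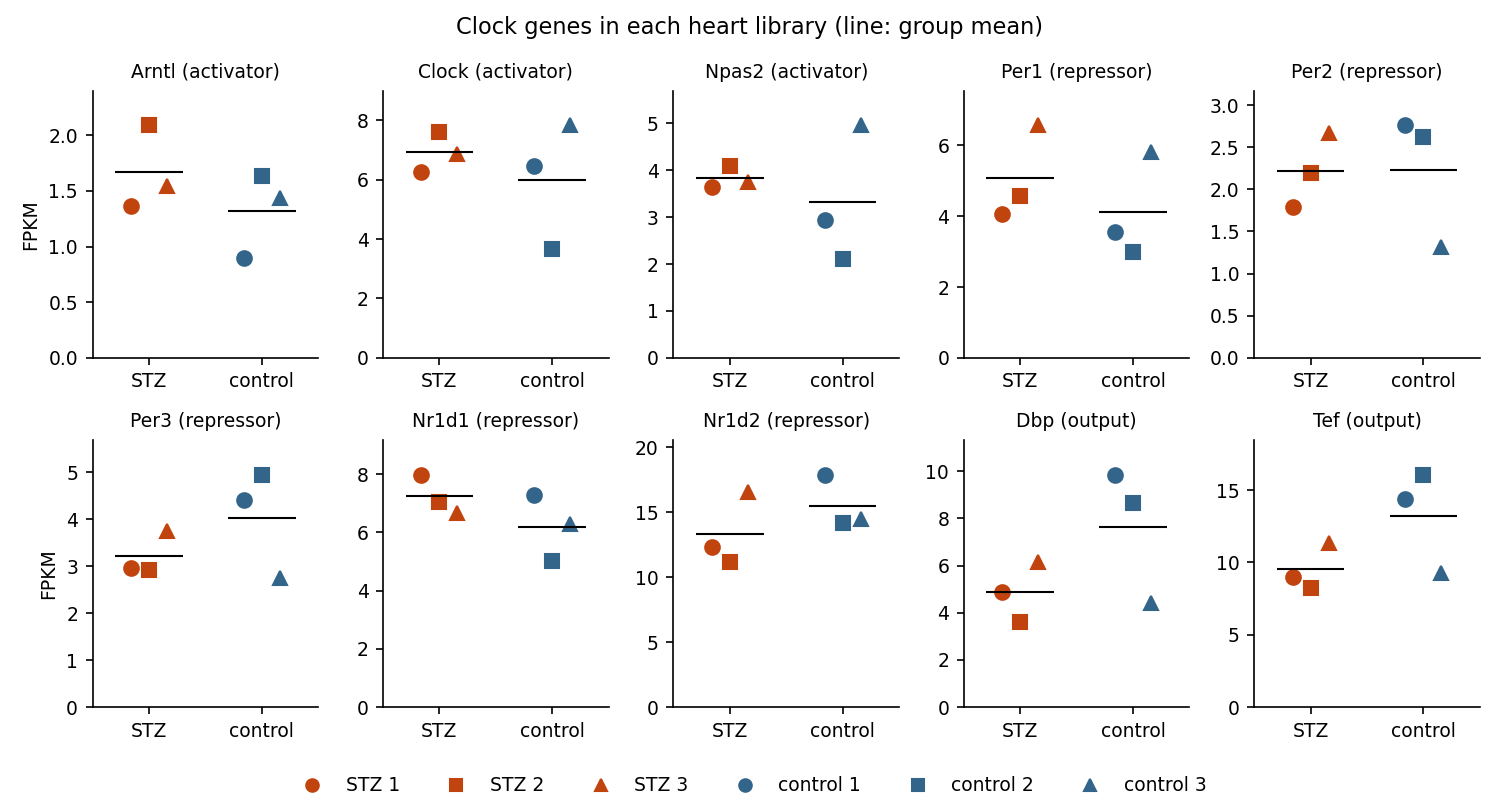
FPKM (vertical axes, each from 0) of the 10 clock genes in the 3 STZ and 3 control libraries, with 1 point per library and a line at the group mean. Dbp, Tef and Per3 are highest in control 1 and control 2, while control 3 lies between STZ values for Dbp and Tef and below them for Per3.

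Per1 (chr11:69095217-69109960, plus strand), a PER gene that glucocorticoids and cAMP also induce, was at 4.06, 4.58 and 6.57 FPKM in STZ hearts and at 3.54, 2.98 and 5.81 FPKM in control hearts. STZ 3 and control 3 had the high values, and the groups overlapped (log2 fold change 0.26 with SE 0.239, BH-adjusted p = 0.922 by limma). That value was 0.095 without STZ 3, 0.10 without control 2 and 0.49 without control 3. Per2 (chr1:91415982-91459324, minus strand), whose mutation disturbs the daily rhythm of mice, was at 1.79, 2.20 and 2.67 FPKM in STZ hearts and at 2.76, 2.62 and 1.32 FPKM in control hearts. Its means were alike, 2.22 ± 0.442 FPKM in STZ hearts and 2.23 ± 0.796 FPKM in control hearts (SD, n = 3 each), and its log2 fold change of 0.017 had a 95% interval from -0.49 to 0.53. Its direction went to -0.033 when libraries were scaled by their recovered reads, to -0.0041 with trimmed-mean scaling and to -0.027 with voom, so no direction is given for it.

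Per3 (chr4:151003652-151044665, minus strand), the PER gene whose loss alters the rhythm of mice least, was at 2.96, 2.92 and 3.75 FPKM in STZ hearts, against 4.41, 4.95 and 2.74 FPKM in control hearts. Control 2 and control 1 were the highest libraries and control 3 the lowest, below every STZ heart. The log2 fold change was -0.24 with SE 0.192 (BH-adjusted p = 0.922 by limma), and it was -0.10 without control 2 and -0.44 without control 3. The 3 Per genes thus did not move as one: Per1 was lowest in control 2, where Per3 was highest. That rank of Per1 depended on the authors' scale. Scaled by recovered reads, Per1 was at 3.49 in control 1 and 3.60 in control 2, while Per3 stayed highest in control 2 at 5.97.

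Nr1d1 (chr11:98767932-98775333, minus strand) encodes the repressor REV-ERB alpha. It was at 7.98, 7.06 and 6.67 FPKM in STZ hearts and at 7.28, 5.01 and 6.29 FPKM in control hearts, with control 2 lowest (log2 fold change 0.20 with SE 0.143, BH-adjusted p = 0.922 by limma). It was the steadiest of the 10, with 1.59-fold between the highest and lowest library, and its log2 fold change was 0.082 without control 2 and 0.31 without control 1. Nr1d1 shares 263 exonic bases, 8.55% of its exons, with the thyroid hormone receptor gene Thra on the opposite strand. Thra was at 37.7, 34.8 and 35.4 FPKM in STZ hearts and at 34.0, 34.1 and 31.7 FPKM in control hearts, and without a stated strand setting reads of the overlap cannot be told apart.

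Nr1d2 (chr14:18204054-18239127, minus strand), which encodes REV-ERB beta, was at 12.4, 11.2 and 16.6 FPKM in STZ hearts and at 17.9, 14.2 and 14.5 FPKM in control hearts. It was highest in control 1 and lowest in STZ 2, while Arntl was lowest in control 1 and highest in STZ 2. The log2 fold change was -0.21 with SE 0.169 (BH-adjusted p = 0.922 by limma). It was -0.10 without STZ 2, -0.11 without control 1 and -0.37 without STZ 3. Nr1d2 averaged 13.4 ± 2.84 FPKM in STZ hearts and Nr1d1 7.24 ± 0.673 FPKM; in control hearts they averaged 15.5 ± 2.07 and 6.19 ± 1.13 FPKM (SD, n = 3 each).

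Dbp (chr7:45705088-45710203, plus strand), a PAR bZIP factor and the output with the widest daily swing in many adult tissues, was at 4.86, 3.62 and 6.14 FPKM in STZ hearts and at 9.86, 8.67 and 4.43 FPKM in control hearts. Controls 1 and 2 were above every STZ heart, while control 3 lay between STZ 2 and STZ 1. Dbp averaged 4.87 ± 1.26 FPKM in STZ hearts and 7.65 ± 2.86 FPKM in control hearts (SD, n = 3 each), and its log2 fold change was -0.52 with SE 0.287 (BH-adjusted p = 0.922 by limma), with a 95% interval from -1.20 to 0.16. Exact permutation of the 6 Dbp values, two-sided, gave p = 0.3, where 3 against 3 samples allow no p below 0.1. The highest library had 2.73 times the level of the lowest, the widest range of the 10, and the SD of Dbp over the 6 libraries on the log2(FPKM + 1) scale, 0.49, was at the 92.3rd percentile of all genes tested. Dbp shares 539 exonic bases, 18% of its exons, with Sphk2 on the opposite strand. Sphk2 was at 4.28, 5.38 and 4.65 FPKM in STZ hearts and at 4.36, 4.34 and 3.54 FPKM in control hearts, highest in STZ 2, where Dbp was lowest. Reads of the shared bases cannot be told apart here either.

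Tef (chr15:81802421-81826863, plus strand), a PAR bZIP factor like Dbp, was at 9.02, 8.24 and 11.3 FPKM in STZ hearts and at 14.4, 16.1 and 9.24 FPKM in control hearts. Its order of libraries was nearly that of Dbp, with controls 1 and 2 at the top, STZ 3 next and STZ 2 at the bottom. The log2 fold change was -0.41 with SE 0.215 (BH-adjusted p = 0.922 by limma, exact permutation p = 0.2), with a 95% interval from -0.92 to 0.10, and it was -0.26 without control 2. Tef had between 1089 and 2704 reads in a library, so its counting error was at most 3.03%.

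Across the 10 genes, limma called 0 in either direction at a BH-adjusted p under 0.05, while 0.0241% of the 12431 genes tested were called. An unadjusted p under 0.05 was reached by 0 of the 10, with limma as with voom, and by 1.17% of all genes tested with a higher level in STZ hearts and 1.42% with a lower one in limma. The lowest and highest adjusted p of the members were 0.922 and 0.993. The STZ and control values did not overlap at 0 of the 10 genes, while they did not overlap at 8.54% of all genes tested. All 10 members passed the filter on low values. Their median log2 fold change was 0.11, where the median over all tested genes was 0.031. It was below 0 at 4 of the 10 members and at 42.3% of all genes tested.

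Single control hearts moved these values. Without control 3, the 5 genes Npas2, Per1, Per3, Dbp and Tef had an unadjusted limma p under 0.05, a level that 5.6% of all genes tested reached in that fit. The log2 fold change there was -0.83 for Dbp (unadjusted p = 0.00645), -0.63 for Tef (unadjusted p = 0.00786), -0.44 for Per3, 0.47 for Npas2 and 0.49 for Per1, and the lowest BH-adjusted p of any member was 0.689. Without control 1 the Dbp value was -0.32. With any other single library left out in place of control 3, no member had an unadjusted limma p under 0.05. The genes named are not independent, since over the 6 libraries Per3 had r = 0.93 with Dbp and 0.98 with Tef. Control 3 is the library with Xist, and the values without it set the STZ hearts against 2 control hearts, of which 1 is control 2, with its low cardiomyocyte and high atrial, fibroblast and erythroid marker sums, and the part of these in the result was not tested.

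**Figure D2:**
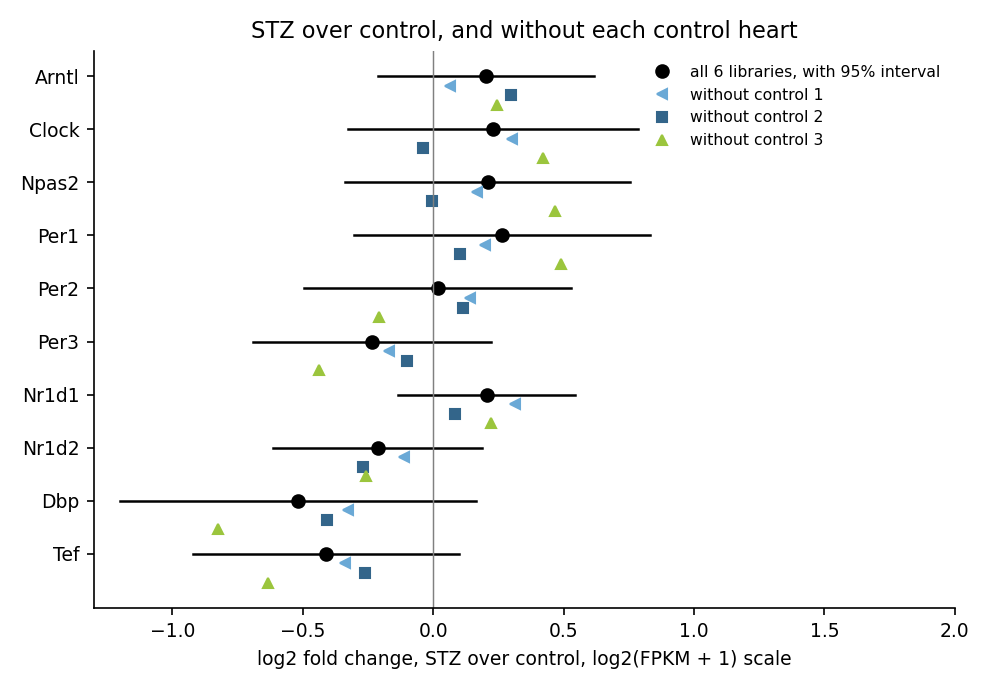
Log2 fold change of each clock gene, STZ over control, on the log2(FPKM + 1) scale (horizontal axis), with all 6 libraries and its 95% interval in black, and without each control heart in turn. All 10 intervals cross 0, and without control 2 Clock and Npas2 are at -0.038 and -0.0058.

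To set the arms side by side, each gene's log2(FPKM + 1) was centred on its mean over the 6 libraries and averaged within an arm, as a description with no test. The activator arm was at -0.0054, 0.25 and 0.078 in STZ hearts and at -0.18, -0.36 and 0.22 in control hearts. The repressor arm was at -0.092, -0.086 and 0.19 in STZ hearts and at 0.13, -0.047 and -0.095 in control hearts. Activators stood above repressors in STZ 1, STZ 2 and control 3, and below them in STZ 3, control 1 and control 2, so the balance divided the hearts across the groups and not by them. Activator minus repressor averaged 0.10 ± 0.223 in STZ hearts and -0.10 ± 0.363 in control hearts (SD, n = 3 each), a difference of 0.21. That difference was 0.090 without STZ 2, 0.10 without control 1, 0.099 without control 2, 0.31 without STZ 3 and 0.41 without control 3.

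As an average, the outputs spread further than either arm. Gene by gene, the SD over the 6 libraries on the log2(FPKM + 1) scale was 0.49 for Dbp and 0.36 for Tef. It was 0.35 for Per1 and 0.34 for Clock, the most variable repressor and activator, so only Dbp stood clearly apart. Dbp and Tef together were at -0.25, -0.48 and 0.039 in STZ hearts and at 0.50, 0.49 and -0.29 in control hearts. Outputs and activators lay on opposite sides of 0 in STZ 2 and in all 3 control hearts, while both were below 0 in STZ 1 and above 0 in STZ 3.

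**Figure D3:**
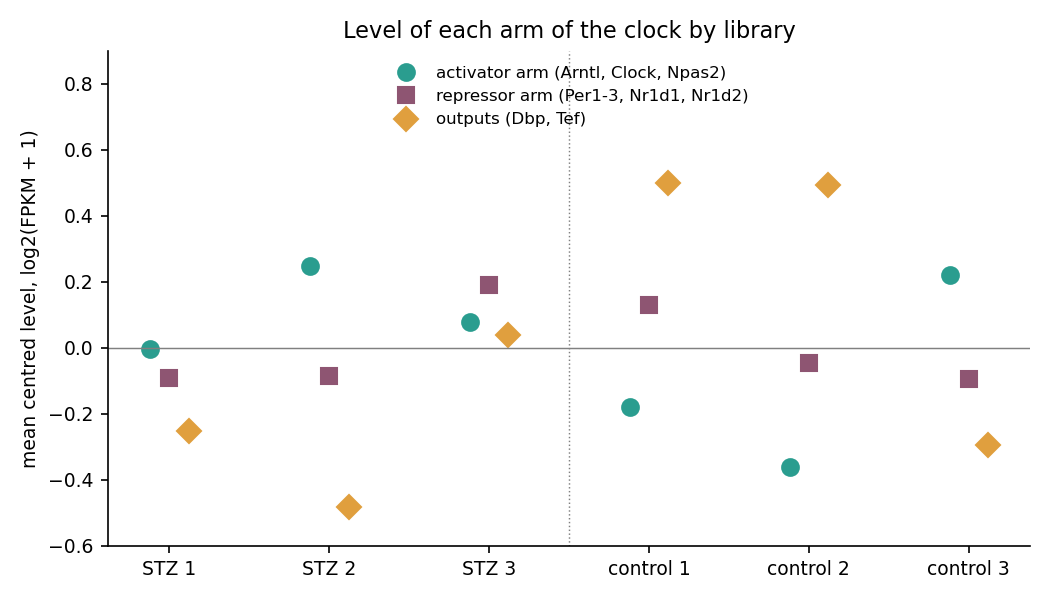
Mean centred log2(FPKM + 1) of the activator arm, the repressor arm and the outputs (vertical axis) in each library (horizontal axis), with 1 point per arm and library. Outputs are at 0.50 and 0.49 in control 1 and control 2, where activators are at -0.18 and -0.36, and activators are above outputs in the other libraries, namely STZ 1, STZ 2, STZ 3 and control 3.

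Gene by gene, 21 pairs of an activator with a repressor or output were compared over the 6 libraries, and 16 had a negative Pearson correlation. These pairs share genes and are not independent. No such count was made over other gene pairs, so it is a description only. Npas2 and Per3 had the strongest, with r = -0.92 (exact permutation p = 0.00417, BH-adjusted over the 21 pairs p = 0.0875) and Spearman's rho = -0.94 (exact permutation p = 0.0167, BH-adjusted p = 0.306). Without control 2 and control 3, the libraries farthest from the Npas2 median, r was -0.84. Npas2 and Tef had r = -0.87 (exact permutation p = 0.0167, BH-adjusted p = 0.160) with rho = -0.71 (p = 0.136, BH-adjusted p = 0.476), and r = -0.89 without those 2 libraries. Npas2 and Dbp had r = -0.81 (exact permutation p = 0.05, BH-adjusted p = 0.175) with rho = -0.83 (p = 0.0583, BH-adjusted p = 0.306), and r = -0.95 without them. No pair passed 0.05 after adjustment.

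Arntl was negative with 6 of its 7 repressors and outputs over the 6 libraries, but most of these signs did not hold without control 1 and STZ 2, the libraries farthest from its median. Its r was -0.66 with Dbp (exact permutation p = 0.153, BH-adjusted p = 0.292) and rho -0.49 (p = 0.356, BH-adjusted p = 0.622), and r turned to 0.92 without those libraries. With Nr1d2 it had r = -0.75 (exact permutation p = 0.0847, BH-adjusted p = 0.222) and rho = -0.60 (p = 0.242, BH-adjusted p = 0.564), turning to 0.57 without them. These 2 relations rest on those hearts, while that with Nr1d1 went to -0.87 without them, against r = -0.28 over all 6 (exact permutation p = 0.571, BH-adjusted p = 0.705) and rho = -0.54 (p = 0.297, BH-adjusted p = 0.567). The 5 positive pairs were those of Per1 with all 3 activators and of Nr1d1 with Clock and Npas2. The highest was Per1 with Npas2, at r = 0.81 (exact permutation p = 0.0472, BH-adjusted p = 0.175), rho = 0.83 (p = 0.0583, BH-adjusted p = 0.306) and r = 0.57 without control 2 and control 3. Without the same libraries, Per1 with Clock went from r = 0.74 to 0.39. Nr1d1 with Clock had r = 0.68 but rho = -0.086, and r = -0.62 without them. Nr1d1 with Npas2 had r = 0.50 but rho = -0.029, and r = -0.20 without them. Per1 with Arntl went from r = 0.22 to -0.31 without control 1 and STZ 2. Over all 21 pairs, 12 kept their sign without the 2 libraries farthest from the activator's median.

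A further 24 pairs, 3 among the activators and 21 among the repressors and outputs together, were compared after the values had been seen. Of these 24, 15 had a positive r. Arntl had r = 0.012 with Clock and 0.19 with Npas2, turning to -0.70 and -0.73 without control 1 and STZ 2. Among the repressors, Per1 and Per3 had r = -0.60. Per3 and Tef had r = 0.98 and rho = 0.83 (exact permutation p = 0.00694 and 0.0583), Dbp and Tef r = 0.96 and rho = 0.89 (p = 0.00694 and 0.0333), and Clock and Npas2 r = 0.92 and rho = 0.94 (p = 0.00556 and 0.0167). Adjusted over the 24 pairs, the p of r was 0.0556 for each of these 3, and the p of rho was 0.35, 0.267 and 0.267. Without control 1 and control 2, r was 0.86 for Per3 and Tef and 0.95 for Dbp and Tef, and without control 2 and control 3 it was 0.68 for Clock and Npas2. The 6 libraries come from both groups, and 3 per group are too few for a correlation within one.

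**Figure D4:**
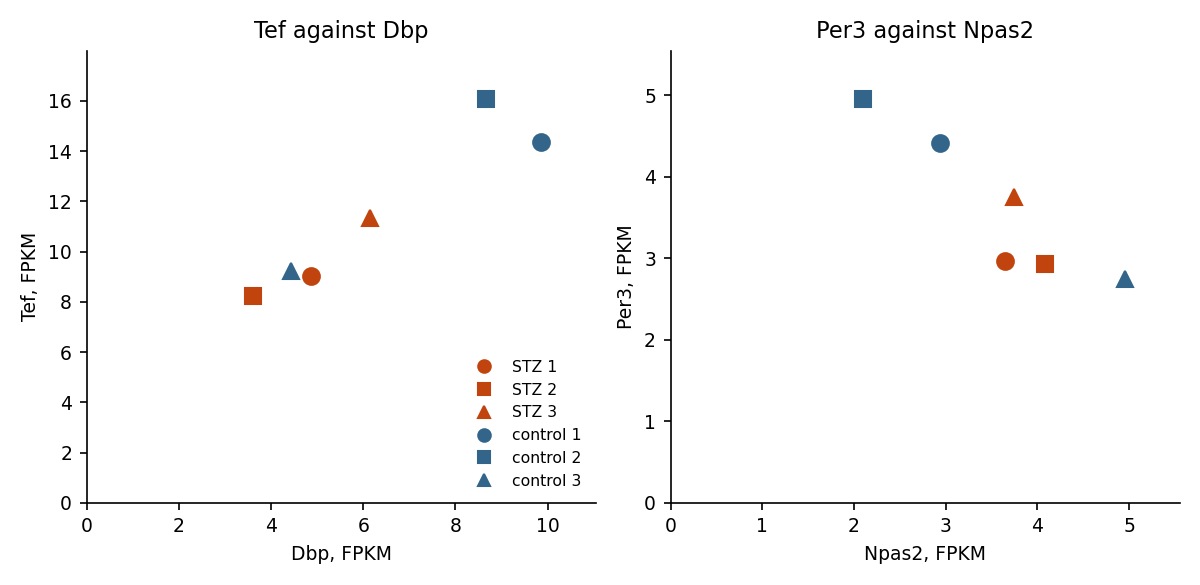
Tef against Dbp (left) and Per3 against Npas2 (right), both axes in FPKM from 0, with 1 point per library. Tef and Dbp are both highest in control 1 and control 2, and Per3 is lowest in control 3, where Npas2 is highest at 4.96 FPKM.

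Beyond the 10 members, 40 other genes of the clock and its outputs were examined, of which 35 passed the filter on low values. By limma 0 passed in either direction, with adjusted p from 0.922 to 0.999, and 0 had an unadjusted p under 0.05, with limma as with voom. Of the 35, 23 had a positive and 12 a negative log2 fold change, while 42.3% of all genes tested were below 0. Their median was 0.067, where the median over all tested genes was 0.031. STZ values were above all control values at 2 of 35, and at 4.92% of all genes tested.

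Among the other core loop genes 8 of 11 were tested, with a median log2 fold change of -0.029. Cry1 and Cry2, the partners of PER in repression, were steady, at 8.36 ± 1.02 and 5.56 ± 0.390 FPKM in STZ hearts and 8.499 ± 0.460 and 5.97 ± 0.919 FPKM in control hearts (SD, n = 3 each). Nfil3, which represses at the D-boxes that Dbp and Tef activate, was at 12.9, 15.3 and 13.5 FPKM in STZ hearts and at 12.9, 7.82 and 14.5 FPKM in control hearts. Its low value in control 2 stood beside the highest Tef value, in the heart with low cardiomyocyte and high atrial marker sums. The log2 fold change of Nfil3 was 0.26, and 0.015 without control 2. A link between Nfil3 and Tef was not tested. Hlf, the remaining PAR bZIP factor, was at 5.18, 5.56 and 5.33 FPKM in STZ hearts and at 7.62, 4.77 and 4.53 FPKM in control hearts, so it shared the high level of Dbp in control 1 but not in control 2.

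Bhlhe40 and Bhlhe41 encode the DEC repressors of E-box genes. They were at 7.79 ± 1.19 and 1.93 ± 0.307 FPKM in STZ hearts and at 7.63 ± 2.46 and 2.23 ± 0.780 FPKM in control hearts (SD, n = 3 each). Rora, the activator at ROREs, was at 2.16 ± 0.345 FPKM in STZ hearts and 2.04 ± 0.334 FPKM in control hearts. Ciart, a further repressor of the ARNTL complex, was below the filter at 0.497 ± 0.197 and 0.387 ± 0.237 FPKM in STZ and control hearts.

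**Figure D5:**
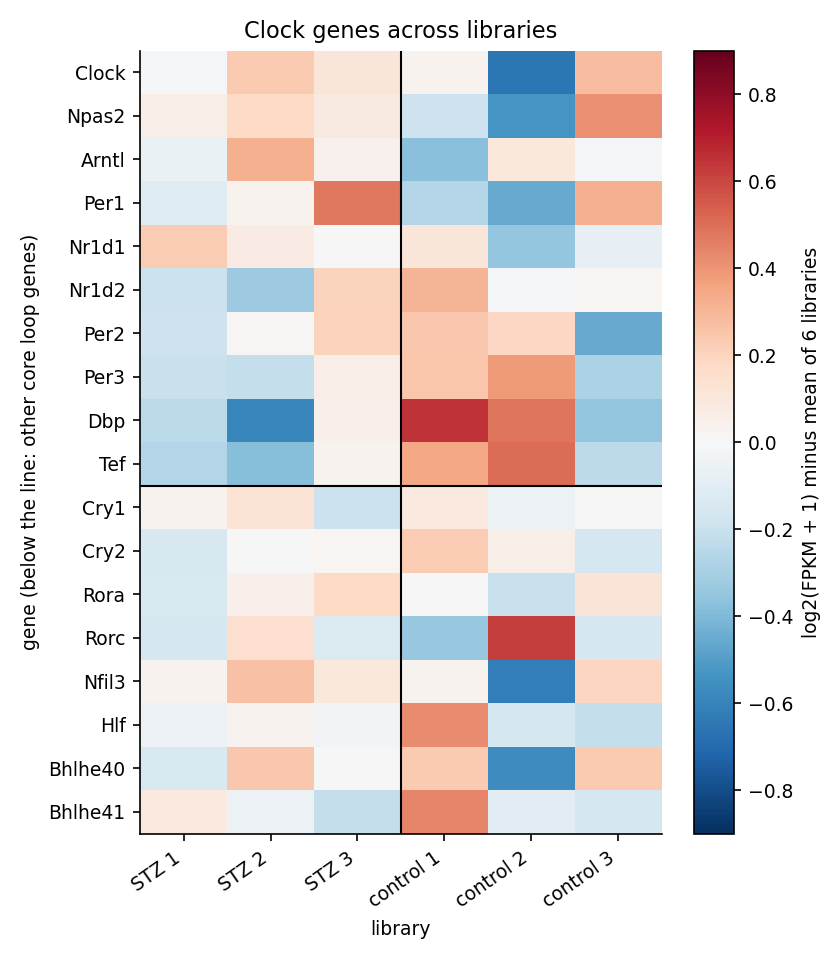
Log2(FPKM + 1) of the 10 clock genes and the 8 other core loop genes tested (rows), minus each gene's mean over the 6 libraries (colour), in each library (columns). Clock, Npas2 and Nfil3 are lowest in control 2, where Per3 and Tef are highest.

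Of 16 tested kinases, ligases and cofactors of the clock, 14 had a positive log2 fold change, with a median of 0.11. Of all genes tested, 42.3% had one below 0, and the median over all of them was 0.031. That all-gene median was -0.025 when libraries were scaled by their recovered reads. The median of the 16 was not computed under that scaling, so 0.11 and -0.025 are not comparable. That scaling also lowered Sfpq from 0.24 to 0.17 and Crebbp from 0.17 to 0.11. Sfpq, an RNA-binding partner of the PER complex, had the lowest p of the list. It was at 59.6, 59.7 and 56.7 FPKM in STZ hearts, above all of 46.9, 48.8 and 53.2 FPKM in control hearts (log2 fold change 0.24 with SE 0.111, BH-adjusted p = 0.922 by limma). The other gene without overlap was Hdac3, the deacetylase that NR1D1 recruits through its corepressor, at 16.7 ± 0.637 FPKM in STZ hearts and 15.6 ± 0.432 FPKM in control hearts (SD, n = 3 each), and it was named after its values were seen. Crebbp, an acetyltransferase that works with the activator complex, was at 4.68 ± 0.541 FPKM in STZ hearts and 4.06 ± 0.540 FPKM in control hearts.

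Output genes outside the loop had 6 positive and 5 negative values among 11 tested. Pdk4, a kinase that shuts down pyruvate oxidation, was at 93.2, 79.2 and 137 FPKM in STZ hearts and at 53.7, 58.4 and 97.5 FPKM in control hearts, with STZ 3 and control 3 highest in their groups (log2 fold change 0.57 with SE 0.290, BH-adjusted p = 0.922 by limma). Its value was 0.83 without control 3 and 0.35 without STZ 3. Nampt, the enzyme of NAD salvage, was at 7.14, 10.7 and 8.78 FPKM in STZ hearts and at 11.7, 10.6 and 9.66 FPKM in control hearts (log2 fold change -0.25 with SE 0.155, BH-adjusted p = 0.922 by limma). That value was -0.12 without STZ 1 and -0.38 without STZ 2.

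The genes whose values followed a clock gene most closely were sought by the smallest root mean square difference of centred log2(FPKM + 1) over the 6 libraries, among named genes with a mean of at least 5 FPKM. For Dbp, the most variable output, they were Tef at 0.16, the stress-inducible Gadd45b at 0.18 and Gamt, of creatine synthesis, at 0.19. Gadd45b was at 7.54, 5.28 and 7.80 FPKM in STZ hearts and at 10.4, 9.42 and 6.54 FPKM in control hearts. Per3, whose mean is under 5 FPKM, was at 0.23 from Dbp. For Clock, the most variable activator, they were Ralgapa1, a regulator of Ral GTPases, at 0.033, the lactosylceramide synthase B4galt6 at 0.034, and Nfil3 at 0.040. For Per1, the most variable repressor, they were Mki67, a marker of dividing cells, at 0.093, the mitochondrial nucleotide carrier Slc25a36 at 0.098 and Foxm1, a transcription factor of mitosis, at 0.099. Without control 2, Dbp kept 2 of its 3 genes, Per1 1 of 3 and Clock 0 of 3, and without control 1, Dbp kept 1, Per1 0 and Clock 2 of 3.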

How the data were processed

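Heart RNA of 3 STZ and 3 control samples, prepared by a SMARTer mRNA-seq protocol per the labels, was profiled in 1 deposited table of 54532 genes. Groups came from the treatment labels and replicate numbers from the titles. The deposited values are FPKM, set by the authors per kilobase of gene length and per a scale of each library, as read from the table's name and values. Builds GRCm38 and mm10 come from the submitters' processing notes, and aligner, counter and strand setting were not given. Value times gene length came in steps of 1 read per library, whole within 0.01 reads for 100% of values above 0. The most similar pair of libraries had a chi-square per degree of freedom of 12.8, so none was taken for a repeat.

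Groups were compared with limma (version 3.58.1, R version 4.3.3), a trend of variance on mean, and log2(FPKM + 1) as the response. The 12431 genes tested reached 1 FPKM in 3 samples or more. Group was the only term, tests were two-sided, and Benjamini-Hochberg adjustment covered every gene in the fit, and calls needed an adjusted p under 0.05. Fold changes on this scale understate those of low genes. Correlations used exact permutation over 720 orders of the libraries. The fit was tested on simulated data. Members and lists were chosen with earlier results of these data known. The text names all 10 members, 8 core loop genes fixed by name, the 4 other clock genes of lowest p, and the 3 genes most like the most variable member of each arm. Deposited positions of all 10 members equalled those of GENCODE M21, from which overlaps were counted. Alternatives covered the pseudocount, filter, scaling, replicate block, array weights, voom on recovered reads and each library left out. Plots were made in Python 3.11.15 with matplotlib 3.10.9.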

Additional observations from a re-analysis of the deposited data

How the results depend on the processing

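No clock member and no gene of the wider clock list passed the limma threshold under any of the 15 alternatives run. The lowest adjusted p of a member was 0.689, without control 3. Genes called over the whole table numbered 3, against 0 with the replicate block, 8 with array weights and 1 with voom, which was added after the data were seen, and 2 to 5 without 1 library. The replicate block called 0 members. Deviations of same-numbered samples from their group means correlated at 0.021, -0.041 and 0.092. With 3 samples per group, such values cannot decide whether same-numbered samples shared a litter or batch, and the labels state no pairing. Per2 turned to -0.033 scaled by recovered reads, -0.0041 with trimmed-mean scaling and -0.027 with voom, and Bhlhe40 to -0.097 with array weights. Without 1 library, log2 fold changes that crossed 0 ranged from -0.038 to 0.42 for Clock, -0.0058 to 0.47 for Npas2, -0.21 to 0.14 for Per2, -0.092 to 0.063 for Cry1, -0.18 to 0.012 for Cry2, -0.15 to 0.17 for Hlf, -0.20 to 0.20 for Bhlhe40, -0.23 to 0.072 for Bhlhe41 and -0.034 to 0.14 for Rora. The cause was not tested. The arm difference kept its sign, from 0.090 to 0.41, and 15 to 18 of 21 pairs were negative without 1 library and 14 scaled by recovered reads. Scaled that way, control 2 and not control 1 was highest for Dbp, and control 1 and not control 2 was lowest for Per1. With array weights Arntl alone among members had an unadjusted limma p under 0.05. Only 5 members were tested at a mean of at least 5 FPKM. The planned tests with edgeR and DESeq2 were not run, and voom was used on the recovered reads in their place. Arntl and Per2, whose lowest libraries held 114 and 135 reads, have the largest counting error, while Dbp has the largest SE of its log2 fold change, 0.287.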
